A study of Mus musculus with 4 samples.

Results

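The genes described here code for the proteins of the mitochondrial ribosome. They were chosen by name, as the protein-coding genes whose symbol begins with Mrpl or Mrps followed by a number, and this gave 78 genes of the 21900 protein-coding genes and 55573 genes of all kinds in the table. By symbol, 49 are Mrpl and 29 are Mrps genes. The mitochondrial ribosome, or mitoribosome, works inside mitochondria and makes the few proteins that mitochondrial DNA still encodes, all of them subunits of the respiratory chain and ATP synthase. Its rRNAs come from mitochondrial DNA, while its proteins are encoded in the nucleus, made on cytosolic ribosomes and imported. Part of these proteins descend from the bacterial ribosome and part were added in the mitochondrial lineage. Dividing muscle precursor cells need new mitoribosomes as they build up their respiratory capacity.

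Ribosome-protected signal was measured in primary mouse myoblasts on day 2 of proliferation, with 2 libraries of wild-type (WT) cells and 2 of cells labelled eIF5A-KO (the KO-labelled libraries). Polysome-Seq is the assay named in the sample titles, but their protocol digested the lysates with RNase I and kept the protected fragments, which is ribosome profiling. The myoblasts were grown with FGF from hind-limb muscle of 3-week-old C57BL/6j mice that carried floxed eIF5A alleles and a tamoxifen-inducible Cre under the Pax7 promoter, or of WT littermates, and all received cycloheximide before lysis. Because Pax7 drives the Cre, other cell types in the culture keep the gene. The study asked whether eIF5A acts on the translation of all mRNAs or of selected ones, and nothing in the labels says whether the paired libraries of a group are separate animals or cultures, so p-values measure only the spread between these libraries.

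The targeted gene did not fall under the knockout label. Eif5a, which codes for a factor that helps ribosomes past difficult peptide bonds such as those between consecutive prolines, had 34.9 and 65.2 RPKM in WT against 60.3 and 59.4 RPKM in the KO-labelled libraries. RPKM are reads scaled for gene length and for library size. The log2 fold change of Eif5a was 0.32, the standard error 0.48 and the adjusted p 0.839 (limma), and without WT library 1 the change was -0.12. The direction of every comparison is therefore that of the KO-labelled libraries relative to WT. Whole reads recovered from the RPKM values came to between 642429 and 704006 per library, of which between 217651 and 460099 lay on protein-coding genes. Mitochondrial rRNA took 39.1% and 30.1% of the WT reads, against 15.0% and 18.5% in the KO-labelled libraries. The 8 myoblast markers (Pax7, Myf5, Myod1, Des, Cdh15, Itga7, Ncam1 and Chrna1) were all below 0 in log2 fold change, 4 of them at an unadjusted p under 0.05, beside 4.46% of all tested genes lower at that threshold. Their summed signal was 254 and 198 RPKM in WT and 100.3 and 121.7 RPKM in the KO-labelled libraries, and Myf5 was at 0 reads in KO library 2. Of the 7 fibroblast markers, 5 were above 0 and 2 below, with sums of 458 and 267 RPKM against 763 and 338 RPKM that overlapped between the groups, of which Dcn gave a large part (240 and 126 against 460 and 171 RPKM). Endothelial markers, all 5 above 0, summed to 114 and 102 RPKM against 142 and 117 RPKM. Of 5 immune markers, 2 passed the filter on low values. The part that these differences in cell types and in rRNA have in the results below was not tested. In bulk libraries, fewer cells of a type and less ribosome-bound mRNA per cell cannot be told apart.

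The mitoribosomal genes were read thinly. Together they held 513 reads in WT library 1 and 611 in WT library 2, against 1141 and 1240 in the KO-labelled libraries. As a share of the reads on protein-coding genes this was 0.191% (95% Wilson interval 0.175% to 0.208%) in WT library 1 and 0.281% (0.259% to 0.304%) in WT library 2. In the KO-labelled libraries the share was 0.248% (0.234% to 0.263%) and 0.322% (0.305% to 0.340%). The groups overlapped, since WT library 2 lay above KO library 1, and WT library 1 was the lowest of the 4. These intervals cover counting error only, because reads copied by PCR are not independent molecules. Summed over the 4 libraries, the median member had 36 reads and the deepest 152, and 65 of the 78 genes reached 20 reads.

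**Figure D1:**
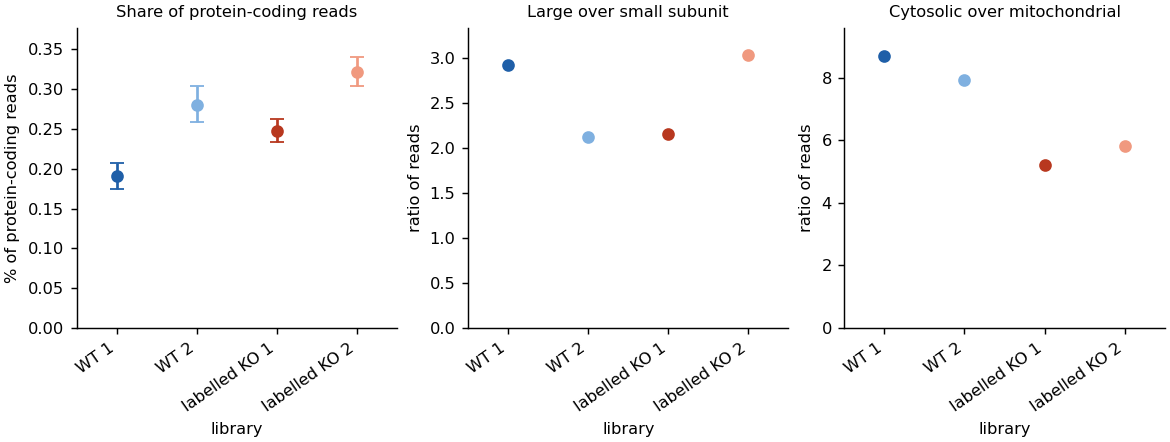
Mitoribosomal protein genes in each library: their share of the reads on protein-coding genes in percent (left, with 95% Wilson intervals), the ratio of reads on large-subunit to small-subunit genes (middle), and the ratio of reads on cytosolic to mitochondrial ribosomal protein genes (right). The share overlaps between the groups (0.191% and 0.281% against 0.248% and 0.322%), while the ratio to cytosolic genes is lower in both libraries labelled KO (5.20 and 5.82 against 8.70 and 7.94).

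The balance between the subunits did not follow the groups. The large subunit holds the peptidyl transferase centre and the exit tunnel, and the small subunit reads the mRNA. Reads on large-subunit genes numbered 379 and 414 in WT and 779 and 932 in the KO-labelled libraries, and reads on small-subunit genes numbered 130 and 195 against 362 and 307. The ratio of large to small was 2.92 and 2.12 in WT and 2.15 and 3.04 in the KO-labelled libraries, so each group held a high and a low library. Compared with the 84 genes for proteins of the cytosolic ribosome, the mitoribosomal genes had more reads in the KO-labelled libraries. Cytosolic genes had 8.70 and 7.94 reads for each mitoribosomal read in WT and 5.20 and 5.82 in the KO-labelled libraries. The groups did not overlap in this ratio, and an exact permutation test over 2 against 2 libraries cannot give a two-sided p under 0.333.

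Levels differed widely among the members. The mean over the 4 libraries had a median of 5.01 RPKM, with quartiles of 3.16 and 9.46 RPKM. The highest was Mrpl2, a large-subunit protein near the peptidyl transferase centre, with 17.01 and 43.5 RPKM in WT and 28.3 and 81.5 RPKM in the KO-labelled libraries. Within each group its libraries differed more than 2-fold, and the groups overlapped. Mrpl52, a large-subunit protein of the mitochondrial lineage, followed with a mean of 29.3 RPKM. Its group means were 10.1 RPKM in WT and 48.5 RPKM in the KO-labelled libraries, so its place rested on the latter. Next came Mrpl38, a protein of the central protuberance, with 23.4 and 17.5 RPKM against 14.7 and 29.6 RPKM. Mrpl28 had 22.8 and 9.23 RPKM in WT and 13.6 and 34.99 RPKM in the KO-labelled libraries. Mrpl12, the protein of the flexible stalk that engages translation factors, had 13.0 and 23.6 RPKM against 16.6 and 19.4 RPKM. Mrps28, a small-subunit relative of bacterial S1, had 6.36 and 27.1 RPKM against 22.5 and 11.1 RPKM. In each of these 4 genes the groups overlapped, and neighbours in the order from Mrpl38 to Mrps28 overlapped in their library values.

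The lowest listed values were at or near 0. Mrpl53, a protein at the base of the stalk, had 0 reads in every library, which allows between 4.19 and 8.06 RPKM given 3 reads per library. Of its 790 exonic bases, 695 are shared on the same strand with the annotated gene Gm42688, which also had 0 reads, and all 354 of its coding bases are among them. Reads there could be lost or assigned otherwise in counting, so the limit holds only if reads shared by both genes were counted, which is not stated. Mrpl23, which lines the tunnel exit, had 0.68 and 0.43 RPKM in WT and 0 and 1.27 RPKM in the KO-labelled libraries, from 8 reads in all. Mrps10 had 0.62 and 0.53 RPKM against 1.501 and 1.07 RPKM. Mrps33 had 0.99 and 1.27 RPKM against 1.32 and 0.74 RPKM, from 5 reads. The first 3 of these genes did not reach a mean of 1 RPKM, so 75 of the 78 members entered the test. Other zeros were scattered: Mrpl18, Mrpl41, Mrps11 and Mrps27 had no read in WT library 1, Mrpl27 none in WT library 2 and Mrps36 none in KO library 1.

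The order of levels depended on which length the reads were divided by. RPKM divide by the whole gene length, all exons of all transcripts merged, and ribosomes occupy mostly the coding part. The gene length of the members ranged from 607 to 8631 bases, and the coding part was between 2.66% and 78.5% of it, with a median of 27.7%. Mrpl33 has 195 coding bases in a gene length of 7326 bases. It ranked 71 of 78 by RPKM and 3 of 78 by reads per kilobase of coding sequence, where it had 43.8. Of its coding bases, 148 are shared on the same strand with the lncRNA gene Gm43809, so its reads could be split between them. On that scale, Mrpl52 came first at 60.5 reads per coding kilobase, then Mrps17 at 44.2, Mrpl33, Mrpl17 at 41.4, Mrps14 at 37.2 and Mrpl2 at 36.6. Of the reads of Mrpl52, 11 lay in WT and 92 in the KO-labelled libraries, so its first place rested on the latter. Only Mrpl2 and Mrpl52 were among the top 6 on both scales, and the Spearman correlation of the orders was 0.56 over 78 genes that share the same reads. The length cancels in a ratio between libraries, but where 1 RPKM is added before taking logs, a longer length draws the fold change further toward 0.

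**Figure D2:**
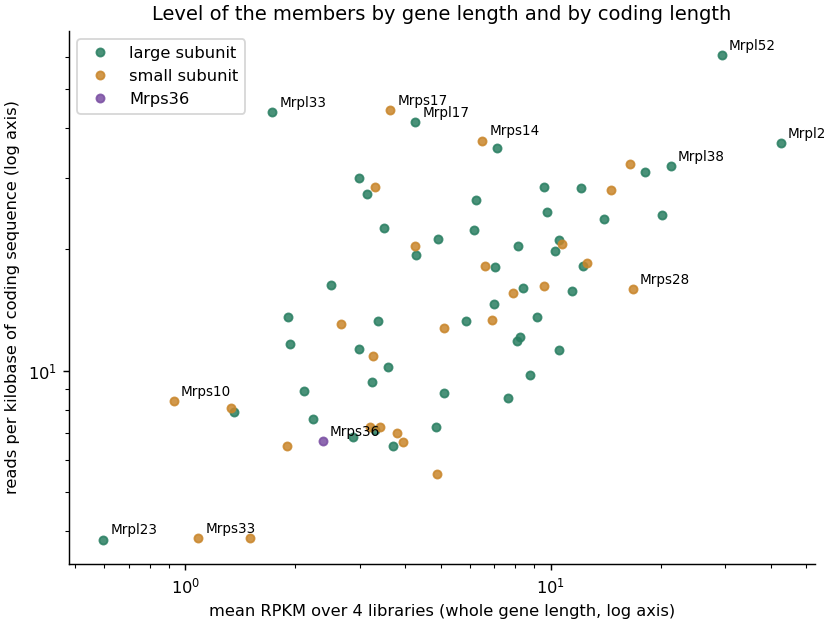
Level of 77 members on both length scales, mean RPKM (horizontal, log axis) against reads per kilobase of coding sequence scaled to a common library size (vertical, log axis); 1 point is 1 gene, coloured by subunit, and Mrpl53, at 0, is left out. Mrpl52 and Mrpl2 lie high on both axes, while Mrpl33, Mrps17 and Mrpl17 lie high only on the vertical axis.

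No mitoribosomal gene passed the adjusted threshold between the groups, and more of them had a positive than a negative fold change. The fit was limma on log2(RPKM + 1) over the 11363 genes that averaged 1 RPKM or more. Fold changes are on that scale and come out too small for weakly read genes. At an adjusted p under 0.05, 0 of the 75 tested members were called, where 0.106% of all tested genes were (12 genes). None of those 12 was a protein-coding gene, of which 0 of 9877 passed. The smallest adjusted p of a member was 0.518, for Mrps18c. At an unadjusted p under 0.05, 8 members (10.7%) were higher in the KO-labelled libraries, beside 2.86% of all tested genes, and 1 member was lower, beside 4.46% of all tested genes. The 8 were Mrps18c, Mrpl47, Mrpl52, Mrps9, Mrpl20, Mrpl22, Mrpl30 and Mrps22, and the 1 was Mrps36. This count rested on single libraries: leaving out WT library 1 gave 6 (8.0%, beside 3.93% of all tested genes) and leaving out WT library 2 gave 12 (16.0% beside 7.12%). It was 0 without either of the KO-labelled libraries, beside 1.804% and 2.359% of all tested genes, where the lone library is assumed to vary like the others. With limma-voom on the recovered reads it was 3 of 65 members (4.62%), close to the 3.48% of all genes in that fit, and no member passed an adjusted p of 0.05.

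Of the 75 tested members, 53 (70.7%) had a log2 fold change above 0 and 22 below, where 50.0% of all tested genes were above 0. Libraries of the groups did not overlap in 25 members that were higher and 9 that were lower, beside 20.1% and 20.3% of all tested genes. The median log2 fold change of the members was 0.24, with quartiles of -0.12 and 0.83 and a range from -1.88 to 2.54. The median of all tested genes was 0.00026, and that of the 9877 tested protein-coding genes 0.05. The median standard error of a single member was 0.50. Leaving out WT library 1 gave a median of 0.14 and leaving out WT library 2 one of 0.54, while leaving out KO library 1 or 2 gave 0.53 and 0.20. WT library 1 had the lowest median signal over the members, 3.25 RPKM, against 5.23 RPKM in WT library 2 and 5.13 and 5.80 RPKM in the KO-labelled libraries. Scaled to the same sum of reads, the median of all tested genes moved to 0.47 and that of the members to 0.78, which is 0.30 above it. Among the 64 tested members with at least 20 reads, 46 were above 0, with a median of 0.47.

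**Figure D3:**
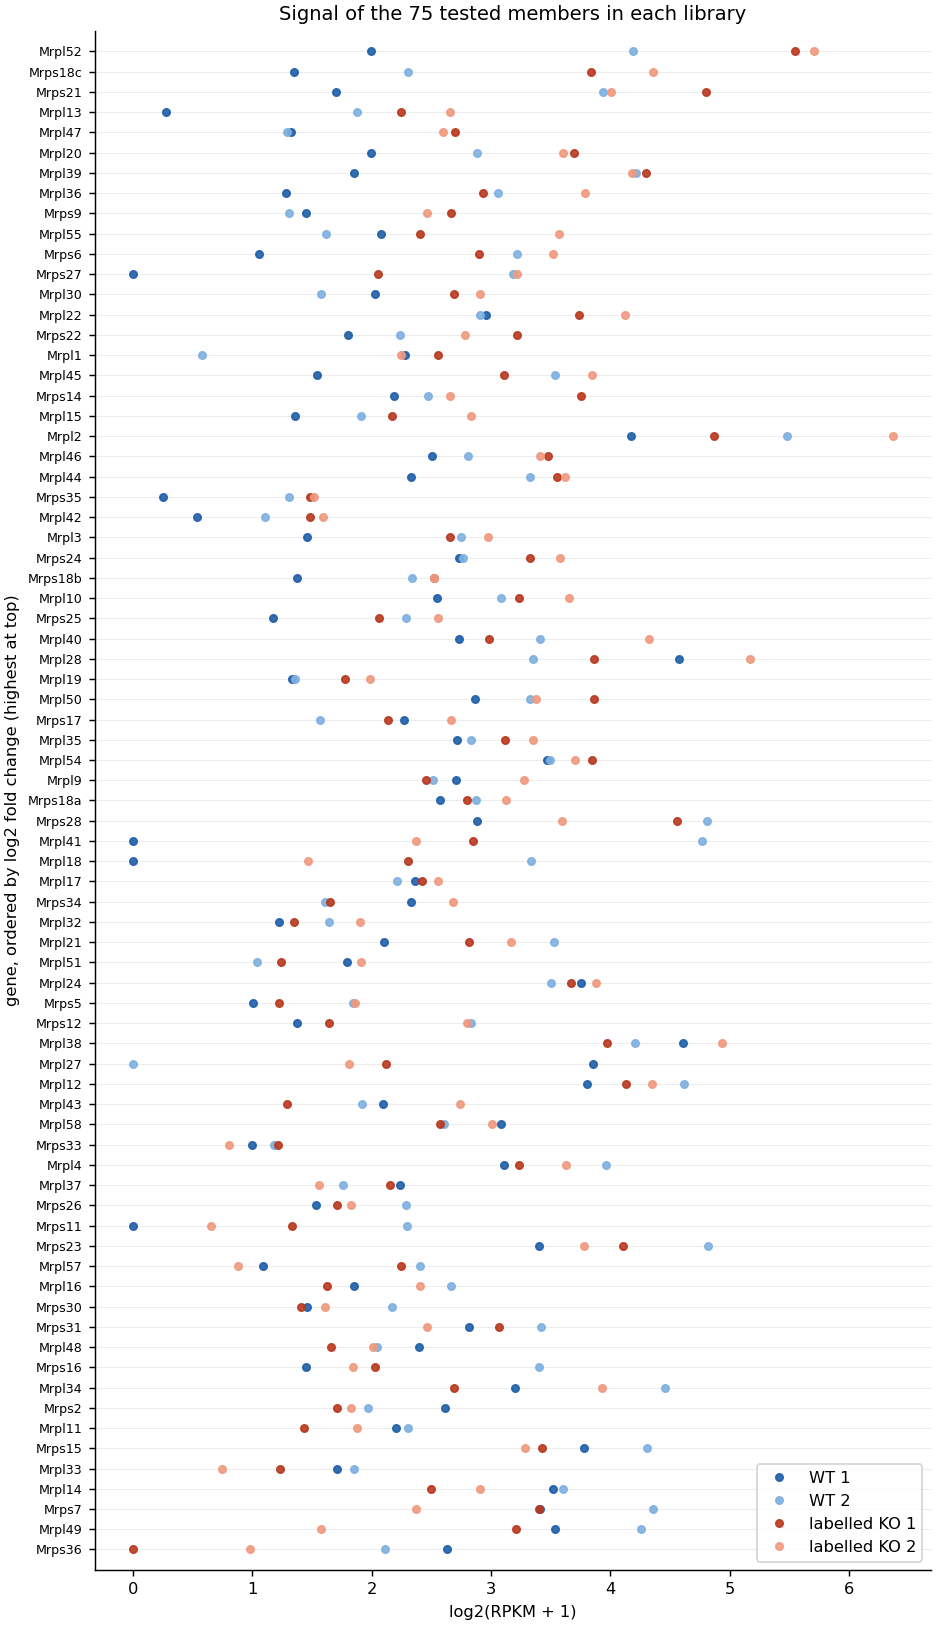
Signal of the 75 tested members in each of the 4 libraries, as log2(RPKM + 1), 1 row per gene, ordered by log2 fold change. In the upper rows the KO-labelled libraries (red tones) lie to the right of WT (blue tones) for 25 genes without overlap, in the lower rows to the left for 9, and in the remaining 41 the groups overlap.

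The highest fold changes were spread over both subunits. Mrpl52 (ENSMUSG00000010406, GRCm38 chromosome 14, 54426909 to 54429756, plus strand, 5 exons) had 2.99 and 17.2 RPKM in WT, from 2 and 9 reads, and 45.7 and 51.4 RPKM in the KO-labelled libraries, from 46 reads each. The groups were apart, with WT libraries that themselves differed more than 5-fold. Its means were 10.1 ± 10.1 and 48.5 ± 3.98 RPKM (SD, n = 2), with a log2 fold change of 2.54 and a standard error of 0.74 (limma, adjusted p = 0.650). Mrps18c (ENSMUSG00000016833, chromosome 5, 100798627 to 100804471, plus strand, 6 exons) is a small-subunit relative of bacterial S18. It had 1.54 and 3.95 RPKM in WT, from 1 and 2 reads, and 13.3 and 19.6 RPKM in the KO-labelled libraries, from 13 and 17 reads. From 3 reads against 30, the ratio of signal was 6.26 with an exact 95% interval from counting alone of 1.95 to 32.1. The fitted log2 fold change was 2.28 (standard error 0.48). Its coding sequence shares 153 bases on the same strand with Gm43511, an annotated transcript of unknown function, so its reads could be split between them.

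Other members without overlap had smaller fold changes. Mrps21, a small-subunit relative of bacterial S21, had 2.24 and 14.4 RPKM against 26.9 and 15.1 RPKM (log2 fold change 1.58, standard error 0.78), and WT library 2 nearly reached KO library 2. Mrpl13 had 0.21 and 2.67 RPKM in WT and 3.75 and 5.30 RPKM in the KO-labelled libraries, from 1, 10, 27 and 34 reads. Mrpl47, at the tunnel exit, had nearly equal libraries within each group, 1.501 and 1.44 RPKM against 5.49 and 5.04 RPKM. Its log2 fold change was 1.34 (standard error 0.38, limma adjusted p = 0.637), and the reads were 4 and 3 against 22 and 18. Mrpl20, one of the early-binding proteins of the bacterial large subunit, had 2.99 and 6.38 RPKM against 11.9 and 11.2 RPKM. Its log2 fold change was 1.21. Adjusted p-values of these 6 genes lay between 0.518 and 0.676 (limma), and none of them changed sign under any alternative that tested it. The sizes of Mrpl52, Mrps21, Mrpl13 and Mrpl20 rested on WT library 1: without it their log2 fold changes were 1.44, 0.46, 0.57 and 0.77. Over the alternatives, Mrpl47 stayed between 1.03 and 1.79 and Mrps18c between 1.79 and 2.80. Without WT library 2, Mrps21 was at 2.71 and Mrpl13 at 2.18, and limma-voom gave 2.56 for Mrpl13.

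On the other side, 8 members with at least 20 reads were lower without overlap, and the 6 with the lowest fold changes are given here. Mrpl49 (ENSMUSG00000007338, chromosome 19, 6053622 to 6057785, minus strand, 4 exons), of the mitochondrial lineage, had 10.6 and 18.1 RPKM in WT and 8.23 and 1.98 RPKM in the KO-labelled libraries. Most of this difference came from KO library 2, with 3 reads. The fitted log2 fold change was -1.51 (standard error 0.63, limma adjusted p = 0.675), and without KO library 2 it was -0.69. Mrps7, which helps form the head of the small subunit, had 9.61 and 19.5 RPKM against 9.58 and 4.18 RPKM, with nearly equal values in WT library 1 and KO library 1. Mrpl14 had 10.5 and 11.2 RPKM against 4.65 and 6.52 RPKM, a log2 fold change of -0.86 from 20 reads. Mrpl33 had 2.26 and 2.61 RPKM against 1.35 and 0.68 RPKM (log2 fold change -0.79). Mrps15 had 12.7 and 18.8 RPKM against 9.77 and 8.78 RPKM (-0.68). Mrpl11, at the stalk base, had 3.60 and 3.94 RPKM against 1.71 and 2.68 RPKM (-0.59). The standard errors of these 6 ranged from 0.38 to 0.63. Mrps7, at -0.99 with all libraries, was at -0.48 without KO library 2 and -0.52 without WT library 2. Before division by library size, the read numbers of the groups overlapped or touched in each of them, for instance 13 and 15 against 15 and 12 reads in Mrps15.

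Mrps36 carries a ribosomal name but is known as a component of the 2-oxoglutarate dehydrogenase complex of the citric acid cycle. It had the lowest fold change of all members. Its signal was 5.21 and 3.33 RPKM in WT, from 4 and 2 reads, against 0 and 0.97 RPKM in the KO-labelled libraries, from 0 and 1 reads. The fitted log2 fold change was -1.88 (standard error 0.58, limma adjusted p = 0.660). From 6 reads against 1, the ratio of signal was 0.10 with an exact 95% interval of 0.0023 to 0.86. Without it, all tested members are proteins of the mitoribosome.

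Grouped by subunit and lineage, the median fold changes of the members other than Mrps36 lay between 0.23 and 0.46, and grouped by place in the ribosome they ran from 0.03 to 0.94. Of 49 tested large-subunit genes, 37 were above 0 with a median log2 fold change of 0.26, and of 25 small-subunit genes 16 were, with a median of 0.23. Without WT library 1 the small-subunit genes turned, with 11 of 25 above 0 and a median of -0.18, and the large-subunit median was 0.25. Leaving out any 1 library, the medians ranged from -0.18 to 0.84 for the small and from 0.20 to 0.53 for the large subunit. Relatives of bacterial proteins had 33 of 44 genes above 0 (median 0.36), and proteins added in the mitochondrial lineage 20 of 30 (median 0.23). Leaving out 1 library, these medians ranged from 0.21 to 0.63 and from 0.10 to 0.51. The 7 tested proteins around the exit of the tunnel, where the new chain leaves toward the inner membrane, were all above 0, with a median of 0.94. They were Mrpl17, Mrpl22, Mrpl24, Mrpl39, Mrpl44, Mrpl45 and Mrpl47, and they ranged from 0.15 for Mrpl24 to 1.34 for Mrpl47. In 4 of them the groups did not overlap, beside 20.1% of all tested genes that were higher without overlap, and Mrpl22 and Mrpl47 had an unadjusted p under 0.05 (limma), beside 2.86% of all tested genes. Mrpl39 had 2.62 and 17.6 RPKM in WT and 18.7 and 17.1 RPKM in the KO-labelled libraries, and Mrpl45 had 1.92 and 10.6 RPKM against 7.64 and 13.4 RPKM, so for both the low value was WT library 1 alone. Without that library the median of the 7 was 0.27, with 6 above 0. Of 8 proteins of the central protuberance, 6 were above 0 (median 0.13). The 3 tested stalk proteins had a median of 0.03, and the 7 tested proteins around the decoding centre and the core of the small subunit one of 0.12, with 4 above 0.

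Some members are named for a subunit or a function that needs explaining. Mrps30 and Mrps18a have small-subunit names but sit in the large subunit, and were counted there. Mrps30 had 1.74 and 3.503 RPKM in WT and 1.65 and 2.04 RPKM in the KO-labelled libraries, and Mrps18a had 4.94 and 6.33 RPKM against 5.98 and 7.72 RPKM. Both overlapped between the groups, with log2 fold changes of -0.31 and 0.24. Mrps18b, the remaining S18 relative, lies in the small subunit and had 1.59 and 4.06 RPKM against 4.75 and 4.74 RPKM (log2 fold change 0.67, standard error 0.46). Over the alternatives its fold change ranged from 0.18 to 1.16. Opposite-strand lncRNA genes share 583 coding bases with Mrps30 (B430218F22Rik) and 347 with Mrps18b (Gm16279), and because the counting strand is not given, the reads of each pair cannot be told apart. The S18 relatives thus spanned from 0.24 to 2.28. Mrpl58, which is related to peptide release factors and is built into the large subunit, had 7.47 and 5.10 RPKM against 4.96 and 7.06 RPKM. Mrps12, at the decoding centre, had 1.59 and 6.12 RPKM against 2.12 and 5.95 RPKM. Mrpl12, Mrpl58 and Mrps12 had log2 fold changes of 0.03, -0.05 and 0.12, each smaller than its standard error of 0.40 to 0.65, and the sign of each turned under some alternatives.

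**Figure D4:**
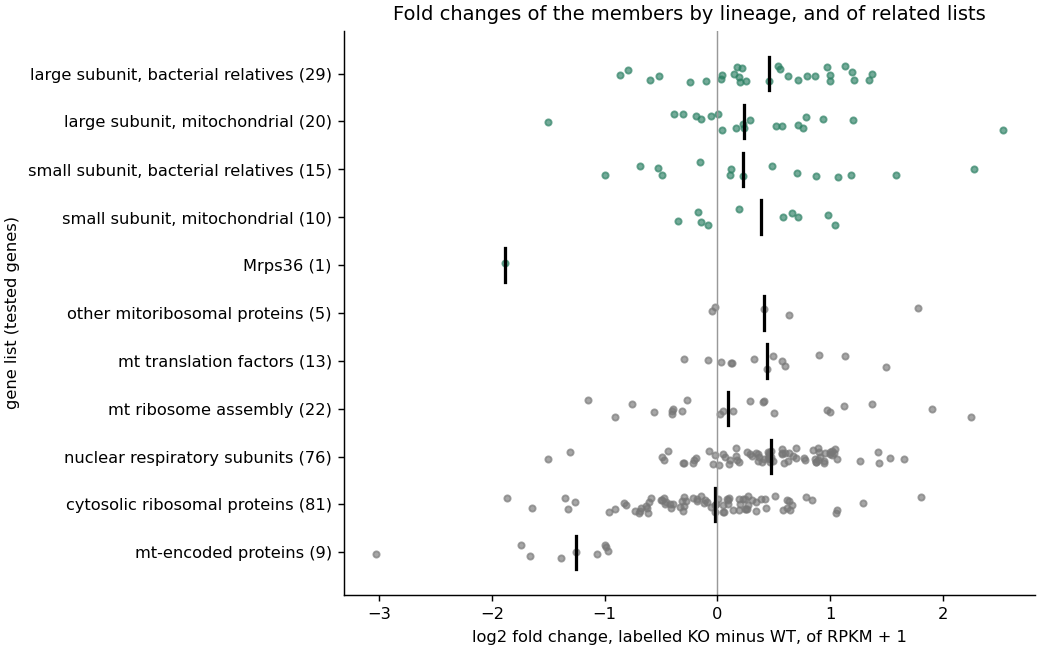
Log2 fold change (libraries labelled KO minus WT, on the log2(RPKM + 1) scale) of tested genes, 1 point per gene, with the median of each list as a black bar and the number of tested genes in brackets; green lists are the members by subunit and lineage, grey lists are other genes. The medians of the member lists lie between 0.23 and 0.46 apart from Mrps36 alone at -1.88, and mitochondrially encoded proteins lie below 0 throughout.

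Other genes of mitochondrial translation stood on both sides of 0. Mitoribosomal proteins whose symbols the name rule does not take had 3 of 5 genes above 0. Chchd1 had 7.30 and 37.4 RPKM in WT and 57.0 and 64.0 RPKM in the KO-labelled libraries, a log2 fold change of 1.78 (standard error 0.76) that moved to 0.68 when WT library 1 was left out and to 2.89 when WT library 2 was. Aurkaip1 had 21.6 and 34.9 RPKM against 44.3 and 42.1 RPKM (0.63, or 0.30 without WT library 1 and 0.97 without WT library 2). Ptcd3 had 2.18 and 4.34 RPKM against 4.67 and 4.34 RPKM (0.42). Dap3, a GTP-binding protein of the small subunit, and Gadd45gip1 had log2 fold changes of -0.05 and -0.02, far below their standard errors of 0.47 and 0.52. Of 13 tested mitochondrial translation factors, 11 were above 0 with a median of 0.44. Leaving out 1 library gave 8 to 11 above 0 and medians of 0.26 to 0.50. The elongation factor Gfm1 had 3.38 and 5.76 RPKM against 11.98 and 7.004 RPKM (0.91). Tsfm, the exchange factor of Tufm, had 4.00 and 8.77 RPKM against 7.97 and 11.5 RPKM (0.60, or 0.12 without WT library 1), while Tufm itself had 9.37 and 5.99 RPKM against 7.78 and 6.41 RPKM (-0.08). The initiation factor Mtif2 had a log2 fold change of 0.50 with a standard error of 0.63. Assembly factors of the mitoribosome were above 0 in 13 of 22 genes (median 0.10), and 4 transcription factors of mitochondrial DNA in 3 (median 0.28). No gene of these 4 lists had an adjusted p under 0.05 (limma).

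Set beside other protein groups, the members, with a median of 0.24, lay between nuclear respiratory chain subunits and cytosolic ribosomal proteins. The nuclear-encoded subunits had 63 of 76 tested genes above 0 and a median of 0.47. Without WT library 1 that median was 0.11, below the 0.14 of the members. Cytosolic ribosomal proteins had 38 of 81 above 0 and a median of -0.02 (-0.25 to 0.17 leaving out 1 library). The products of mitochondrial DNA lay on the other side of 0: the 9 tested mitochondrially encoded protein genes were all below 0, with a median of -1.26 (-1.87 to -0.65 leaving out 1 library), and both rRNAs were too. Of the 13 such protein genes, 4 were listed at 0 in every library. The small-subunit rRNA mt-Rnr1 had a log2 fold change of -1.73 (standard error 1.24) and the large-subunit rRNA mt-Rnr2 one of -1.70 (standard error 1.15), with adjusted p-values of 0.706 and 0.697 (limma). With quantile normalization both turned positive, at 0.27 and 0.68. The reads of mt-Rnr2 per read of mt-Rnr1 were 1.49 and 1.37 in WT and 2.54 and 0.84 in the KO-labelled libraries, so the ratio of the mitochondrial rRNAs varied most among the KO-labelled libraries. These are values of fragments in a ribosome preparation, and how much of them came from intact mitoribosomes was not tested. None of these comparisons between lists has a test.

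The members also have features of sequence and position that their names do not give. Their proteins are short, from 65 to 442 residues with a median of 194. Their coding sequences had a median GC content of 53.3% (range 41.6% to 65.6%), close to the 53.2% of 9847 tested protein-coding genes. They lie on 17 chromosomes, and chromosome 11 held 11 of them, or 14.1%, beside 7.41% of all protein-coding genes in the table. Of the 78 members, 33 share exonic bases and 17 share coding bases with another annotated gene. Such overlaps were not counted for genes outside the members. The head-to-head neighbours Mrpl46 and Mrps11 on chromosome 7 share 173 exonic bases, and had 4.69 and 6.00 against 10.1 and 9.62 RPKM, and 0 and 3.91 against 1.52 and 0.57 RPKM. In RefSeq promoter windows of GRCm38 (250 bases before to 50 after a start), 69 members were found by symbol with 75 windows. Motifs known from promoters of genes for mitochondrial proteins were searched on both strands, and none of the searched runs contains another. The letters GCGCATGC, the core of the motif of nuclear respiratory factor NRF1, were in 10.7% of the windows of members, beside 3.66% of 20206 windows of protein-coding genes and 2.71% of all 32851 windows. The ETS core CCGGAAG was in 34.7%, beside 11.9% and 8.86%, and AAGATGGC, part of the YY1 motif, in 16.0%, beside 3.10% and 2.75%. The general CCAAT box, as a contrast, was in 40.0%, beside 37.9% and 37.4%. At least 1 of the former 3 motifs was found in 38 of the 69 members (55.1%), beside 19.2% of protein-coding genes and 14.9% of all genes with a window. Neither background was limited to genes read in these libraries. A match is a description of letters and not of binding.

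Fold change was lower at higher GC content, in the members as in all protein-coding genes. The Spearman correlation between log2 fold change and coding GC was -0.28 over 75 members and -0.36 over 9847 protein-coding genes, points that share the same libraries. Members below the median GC of 53.3% had a median log2 fold change of 0.58, beside 0.25 for protein-coding genes below the same value. Members at or above it had 0.12, beside -0.18. The median of the members was thus above that of protein-coding genes on either side of this value. With the trend on coding GC removed in each library, the median of the members was 0.38 beside 0.01 for all genes in that fit.

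**Figure D5:**
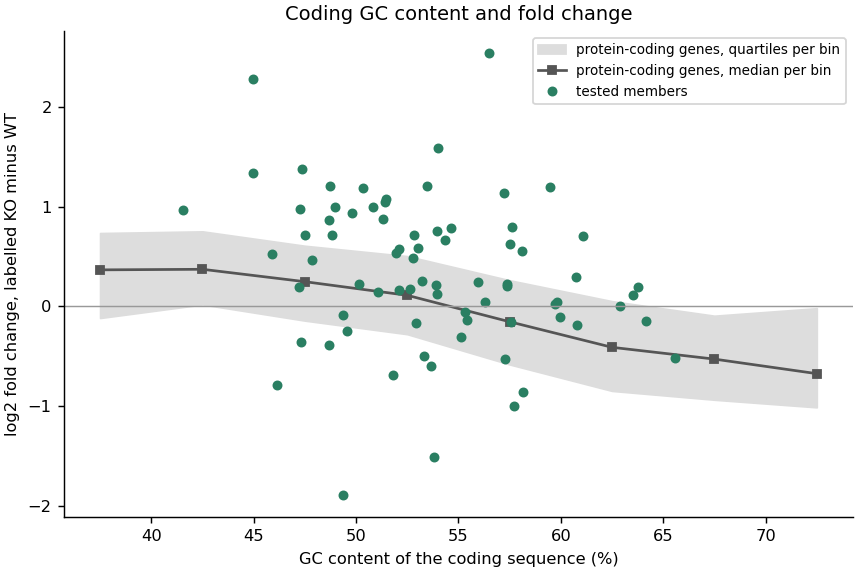
GC content of the coding sequence in percent (horizontal) against log2 fold change, libraries labelled KO minus WT (vertical); green points are the 75 tested members, squares and line the median of tested protein-coding genes per bin of 5 percentage points, and the grey band their quartiles. Both fall from left to right, and more members lie above the line than below it.

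Runs of consecutive prolines were examined because eIF5A is known to help ribosomes through them. A run of at least 3 prolines was found in 8 of the 78 members (10.3%), beside 25.8% of tested protein-coding genes. These shares were not matched for protein length, and the members are short, with a median of 194 residues. The runs had 3 to 5 prolines. The coding stretches that hold the runs of Mrpl10, Mrpl44 and Mrps30, and the 2 of Mrpl38, are given below with the proline codons in capitals and 5 codons on either side, from GENCODE M21 transcripts of GRCm38, so that the places where eIF5A dependence might be sought can be seen. The stretch of Mrpl10 is in exon 2 of 5 at chr11:97044656-97044697 on the plus strand. The stretch of Mrps30 is in exon 1 of 5 at chr13:118386833-118386874 on the minus strand. Those of Mrpl38 are in exon 3 of 9 at chr11:116135273-116135311 and exon 9 of 9 at chr11:116132075-116132113, on the minus strand. The stretch of Mrpl44 crosses from exon 1 to exon 2 of 4 on chromosome 1.

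Mrpl10, 4 prolines: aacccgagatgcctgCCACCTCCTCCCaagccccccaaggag
Mrpl44, 4 prolines: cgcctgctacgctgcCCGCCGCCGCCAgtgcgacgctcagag
Mrps30, 4 prolines: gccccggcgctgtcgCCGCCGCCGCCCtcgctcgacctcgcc
Mrpl38, first run of 3: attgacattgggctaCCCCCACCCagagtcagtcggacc
Mrpl38, second run of 3: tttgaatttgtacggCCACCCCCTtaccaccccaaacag

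Of the 8 members with a proline run, 7 were above 0 in log2 fold change and 1 below, with a median of 0.58. The 67 tested members without such a run had 46 above 0 and a median of 0.23. Of 2538 tested protein-coding genes with such a run, 1055 were above 0, with a median of -0.13. Without WT library 1 the median of the 8 was 0.31, and without KO library 2, 5 of them were above 0. Mrpl22, which lines the exit tunnel, had 6.76 and 6.49 RPKM in WT and 12.4 and 16.4 RPKM in the KO-labelled libraries. Its log2 fold change was 1.00 (standard error 0.38, limma adjusted p = 0.672), from 4, 3, 11 and 13 reads. Mrpl10, the anchor of the stalk, had 4.86 and 7.46 RPKM against 8.39 and 11.6 RPKM (log2 fold change 0.63, or 0.36 without WT library 1). Mrpl44, a protein with a ribonuclease III fold, had 4.04 and 9.04 RPKM against 10.7 and 11.3 RPKM (0.76, or 0.26 without WT library 1), and Mrpl19 had 1.52 and 1.56 RPKM against 2.43 and 2.95 RPKM (0.54). In these 4 genes and Mrps18b the groups did not overlap, beside 384 of the 2538 protein-coding genes with such a run and 20.1% of all tested genes that were higher without overlap. Mrpl38 and Mrpl51, with log2 fold changes of 0.05 and 0.16, overlapped between the groups, and so did Mrps30, the only one of the 8 below 0. Signal over a whole gene does not show where on the mRNA the ribosomes were, so pausing at these runs could not be measured here.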

How the data were processed

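The authors deposited a table of RPKM values per gene and library from ribosome profiling (titled Polysome-Seq). According to the study's methods and the submitters' processing notes, rRNA and tRNA reads were removed. The remaining reads were mapped with TopHat2 to mm10 and counted per gene of an Ensembl annotation with HTSeq. The deposited values still hold reads on mt-Rnr1 and mt-Rnr2, at 39.1% and 30.1% of WT reads and 15.0% and 18.5% in the KO-labelled libraries. Tool versions and the strand setting are not given in the sources used here. Multiplied by gene length, 100% of the values above 0 were whole multiples of 1 read (tolerance 0.01), so whole reads were recovered. The library size used by the authors held the typical gene, not the total (602863, 471136, 906990 and 807705).

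Genes averaging 1 RPKM or more were tested with limma 3.58.1 (R 4.3.3; trend=TRUE) on log2(RPKM + 1), both groups together, with Benjamini-Hochberg adjustment over all 11363 genes and calls at an adjusted p under 0.05. The script was tested on simulated data. Coordinates, coding sequences and overlaps came from GENCODE M21, not from the annotation release named in the methods, and in it all 78 members had the same coordinates. Intervals are 95%. Of the 8 members with a proline run, the coding stretches of 4 are printed and the others are not reported here.

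Named members were the 6 highest and 4 lowest by mean RPKM, the 6 lowest and 6 highest fold changes among members with at least 20 reads and no overlap between groups, those with 3 or more consecutive prolines, and genes fixed for their role. Members that are also counted in a sentence, such as those at an unadjusted p under 0.05, tunnel-exit proteins and scattered zeros, were named after their values were seen. The members, lists and tests were chosen with earlier results of these data known. The promoter motifs were chosen after the other results were seen.

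Alternatives were a pseudocount of 0.1, other filters, other scalings, protein-coding genes only, trend=FALSE, limma-voom on recovered reads, removal of the GC trend, a replicate block, and leaving out each library.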

Additional observations from a re-analysis of the deposited data

How the results depend on the processing

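No member reached an adjusted p under 0.05 by limma under any of the 16 alternatives; the smallest was 0.144, for Mrpl52 without WT replicate 2. The median log2 fold change of the members (0.24) stayed between 0.14 and 0.56 above that of all tested genes. It was 0.58 with a pseudocount of 0.1 and 0.78 after scaling every library to 1 sum, and between 0.14 and 0.54 leaving out 1 library. The count higher at an unadjusted p under 0.05 (8) was 4 with a minimum mean of 5 RPKM (10.3% of members, beside 3.23% of all genes in that fit), 22 scaled to the same sum (29.3% beside 14.8%), 5 scaled over protein-coding genes (6.67% beside 2.09%), 4 with trend=FALSE (5.33% beside 2.51%), 3 with limma-voom (4.62% beside 3.48%), and 0 to 12 leaving out 1 library. The count lower (1) was 0 scaled to the same sum, 3 scaled over protein-coding genes, 2 with protein-coding genes only, 2 with the GC trend removed, and 1 to 2 leaving out 1 library. The number below 0 (22) was 9 with a minimum mean of 5 RPKM, where 39 members remained, 9 scaled to the same sum, and 18 to 31 leaving out 1 library. By reads per coding kilobase, 2 of the top 6 genes stayed there.

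Of 29 named members, 20 kept their sign throughout. Scaling to the same sum turned Dap3 (0.47), Gadd45gip1 (0.47), Mrpl58 (0.47), Mrps30 (0.12), Mrps33 (0.24) and Tufm (0.46). Scaling over protein-coding genes turned Mrpl12 (-0.078) and Mrpl38 (-0.063). Quantile normalization turned Dap3 (0.020), Gadd45gip1 (0.048), mt-Rnr1 (0.27) and mt-Rnr2 (0.68), and removing the GC trend Gadd45gip1 (0.43). Leaving out 1 library turned genes with ranges of -0.48 to 0.38 for Dap3, -0.12 to 0.76 for Eif5a, -0.67 to 0.63 for Gadd45gip1, -0.38 to 0.44 for Mrpl12, -0.099 to 1.20 for Mrpl28, -0.44 to 0.53 for Mrpl38, -0.22 to 0.54 for Mrpl51, -0.29 to 0.19 for Mrpl58, -0.61 to 0.84 for Mrps12, -0.74 to 1.20 for Mrps28, -0.66 to 0.052 for Mrps30, -0.29 to 0.13 for Mrps33, -0.20 to 1.19 for Mtif2 and -0.36 to 0.21 for Tufm. The cause was not tested. In the labels, samples of the same number were linked only by that number. Their deviations from the group means correlated at 0.0575, a value that is the same for both numbers with 2 libraries per group. Whether they shared a batch was not tested. With the replicate block 0 members were called, and 7 were higher and 1 lower at an unadjusted p under 0.05 (limma). Depth limits every value for single genes, with a median of 36 reads over 4 libraries.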
